A study of Mus musculus with 10 samples.

Results

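The insulin-like growth factor (IGF) system was followed in 10 genes, chosen by name: the ligands Igf1 and Igf2, the receptor Igf1r, and the binding proteins Igfbp1 to Igfbp7. Each of them had 1 named probe set, so all 10 were measured among the 24704 named genes of the arrays. With the CDAA diet Igf1, Igfbp5 and Igfbp3 rose, Igfbp4 fell, and the other 6 members did not pass the test. The RNA came from a preparation of liver sinusoidal endothelium (LSEC), the sieve-like lining of the liver's smallest vessels, of female C57BL/6N mice and their control siblings. Feeding began at 10 weeks of age and lasted 10 weeks, with either CDAA, a feed with 1% cholesterol and 31% of its calories from fat, or a control feed (labelled Std). The labels do not spell CDAA out. The name is commonly used for feeds low in choline and with defined amino acids, given to bring on fatty liver with scarring. Each of the 5 arrays per diet carried RNA pooled from the livers of 3 mice, taken by magnetic beads against CD146, the protein made from Mcam. One label field gives 10 days of feeding, against 10 weeks in the others. The series' design text also mentions Gata4 knockout mice, which are not analysed here, and no sample is labelled with a gene deletion.

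IGF1 and IGF2 are small secreted peptides related to insulin that act through the receptor tyrosine kinase IGF1R to promote growth and survival. In blood and tissue most IGF is held by binding proteins, which lengthen its life, keep it from the receptor, or release it when proteases cut them. In the liver, hepatocytes driven by growth hormone are the main source of circulating IGF1, while the binding proteins come from different cells, IGFBP1 and IGFBP2 from hepatocytes and several others from endothelial and mesenchymal cells.

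To show where the genes that changed begin, RefSeq promoter windows (build GRCm38.p6) are given for Igf1, Igfbp3, Igfbp4 and Igfbp5, each reaching from 250 bases before the annotated start to 50 after it, read along the gene. All 10 members had at least 1 such window. The windows were searched on both strands for 6 motifs, each given with its share of the 32851 RefSeq windows of the same 300 bases. The motif of the TATA-binding protein, TATAAA, was in 13.6% of all windows. That of the nuclear factor Y complex, CCAAT, was in 37.4%. The motif of SP1 and related factors, GGGCGG, was in 35.7%, and the E-box of basic helix-loop-helix factors, CACGTG, was in 7.15%. Those of forkhead factors of the FOXO family, TGTTTAC, and of the blood and endothelial factors named after GATA, here with the letters AGATAA, were in 3.65% and 11.2%. No motif contains another. Capitals mark a match, and lower case is all other sequence.
Igf1 (chr10:87860861-87861160, plus strand): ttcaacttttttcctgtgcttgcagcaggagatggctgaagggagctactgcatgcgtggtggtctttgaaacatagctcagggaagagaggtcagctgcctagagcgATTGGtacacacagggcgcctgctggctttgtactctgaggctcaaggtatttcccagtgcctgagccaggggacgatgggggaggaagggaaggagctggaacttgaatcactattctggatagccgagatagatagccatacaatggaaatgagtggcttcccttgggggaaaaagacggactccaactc
Igfbp3 (chr11:7213874-7214173, minus strand): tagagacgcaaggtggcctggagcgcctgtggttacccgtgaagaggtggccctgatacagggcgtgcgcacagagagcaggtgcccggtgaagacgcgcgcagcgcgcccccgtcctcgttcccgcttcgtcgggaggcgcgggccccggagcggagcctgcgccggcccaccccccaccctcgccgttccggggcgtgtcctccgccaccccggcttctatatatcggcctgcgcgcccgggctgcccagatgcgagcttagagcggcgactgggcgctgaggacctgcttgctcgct
Igfbp4 (chr11:99040994-99041293, plus strand): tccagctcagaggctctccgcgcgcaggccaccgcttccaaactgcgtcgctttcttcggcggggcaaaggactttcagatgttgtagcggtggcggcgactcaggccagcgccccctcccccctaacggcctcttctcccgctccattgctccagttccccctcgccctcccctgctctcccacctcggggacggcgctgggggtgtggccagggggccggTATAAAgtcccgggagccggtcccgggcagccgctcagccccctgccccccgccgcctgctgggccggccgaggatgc
Igfbp5 (chr1:72874816-72875115, minus strand): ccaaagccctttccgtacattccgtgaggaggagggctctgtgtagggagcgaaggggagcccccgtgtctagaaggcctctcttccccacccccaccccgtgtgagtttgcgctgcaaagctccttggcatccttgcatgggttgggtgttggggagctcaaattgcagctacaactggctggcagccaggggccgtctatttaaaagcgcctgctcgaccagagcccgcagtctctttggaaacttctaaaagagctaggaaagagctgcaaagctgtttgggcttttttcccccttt
Igf1 held 1 CCAAT match, on the opposite strand and beginning 142 bases before the start, and Igfbp4 held 1 TATAAA match, beginning 28 bases before the start. The other windows printed held none of the 6 motifs. GC made up 71.7% of the Igfbp3 window and 71.3% of the Igfbp4 window, against 52.3% for Igf1, 56.3% for Igfbp5 and a median of 52.7% over all windows. A match is a description of the letters and not a binding site.

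Values are log2 signals, in which a difference of 1 is a doubling, and to 2 decimals the arrays all had a median of 3.89. No detection call was used, so a low signal is not known to lie above background. The median of 3.89 is not a detection limit, and signals somewhat above it carry the same caution. Signals of different genes come from different probes and are not compared with each other. The change reported for a gene is its mean with CDAA less its mean with Std, by limma, and "rose" and "fell" are written only of a Benjamini-Hochberg adjusted p under 0.05 over all 24704 genes. CDAA 1 and CDAA 3 stood apart from the other CDAA arrays on the first principal component, which held 51.1% of the variance. CDAA 1 also held 24921 distinct values over its probe sets, against at most 10080 in any other array. The reason for that difference was not tested. Std 3 stood apart by its neutrophil markers, whose mean was 9.91 there and 4.24 to 4.60 in the other Std arrays. LSEC markers were present with both diets, with list means of 11.72 to 11.88 in Std and 10.25 to 11.28 in CDAA, and 11 of 13 fell. Among them Stab1 and Stab2, scavenger receptors of sinusoids, fell by 0.81 and 0.89. The mean of 12 pan-endothelial markers was 11.34 to 11.49 in Std and 10.05 to 11.13 in CDAA, and 9 fell (the first in the list are Pecam1 at a change of -0.47, which did not pass, and Cdh5 at -0.64, which did). Mcam, the bead target, was at 9.66 ± 0.34 with CDAA and 9.54 ± 0.10 with Std (SD, n = 5) and did not pass.

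Markers of other cells moved too. Of 8 recruited macrophage markers 7 rose (Ccr2 by 2.90 and Cx3cr1 by 2.55), with list means of 8.05 to 9.51 in CDAA and 4.89 to 5.81 in Std. All 7 bile duct markers rose (Krt19 by 2.25 and Krt7 by 1.81), with means of 7.44 to 8.35 and 4.41 to 5.66. Of 13 stellate cell and fibroblast markers 7 rose, though not the first in that list, Lrat (0.53) and Des (0.22), and the means were 6.63 to 8.07 and 5.76 to 6.29. Of 10 hepatocyte markers 4 rose and 2 fell (Alb at a change of 1.28, which passed, and Apoa1 at -0.57, which did not), with means of 7.16 to 8.29 and 6.71 to 7.41. Of 8 Kupffer cell markers 4 fell, Clec4f and Vsig4 by 1.14 each, with means of 8.09 to 9.05 and 8.55 to 9.67. The other 4 Kupffer cell markers did not pass and had changes upward, of 0.18 to 0.79. Of 10 markers of capillary, venous and lymphatic endothelium 5 rose and 1 fell (Cd34 at 1.37, which passed, and Vwf at -0.33, which did not), with means of 8.52 to 9.05 and 8.17 to 8.49. By limma 0 of the mesothelial, T and NK, B cell and neutrophil markers passed, and 0 had an unadjusted p under 0.05. Their first genes changed by -0.06 (Msln), -0.24 (Upk3b), -0.25 (Cd3e), 0.21 (Cd3d), 0.21 (Cd79a), 0.07 (Cd79b), 1.46 (S100a8) and 1.49 (S100a9). The neutrophil mean was 5.82 to 6.60 in CDAA, above every Std array but Std 3. With Std 3 in its group, S100a8 had an SD of 2.66 with Std, against 0.57 with CDAA. Because each array holds a mixture, fewer cells of a type and less RNA per cell cannot be told apart.

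**Figure D1:**
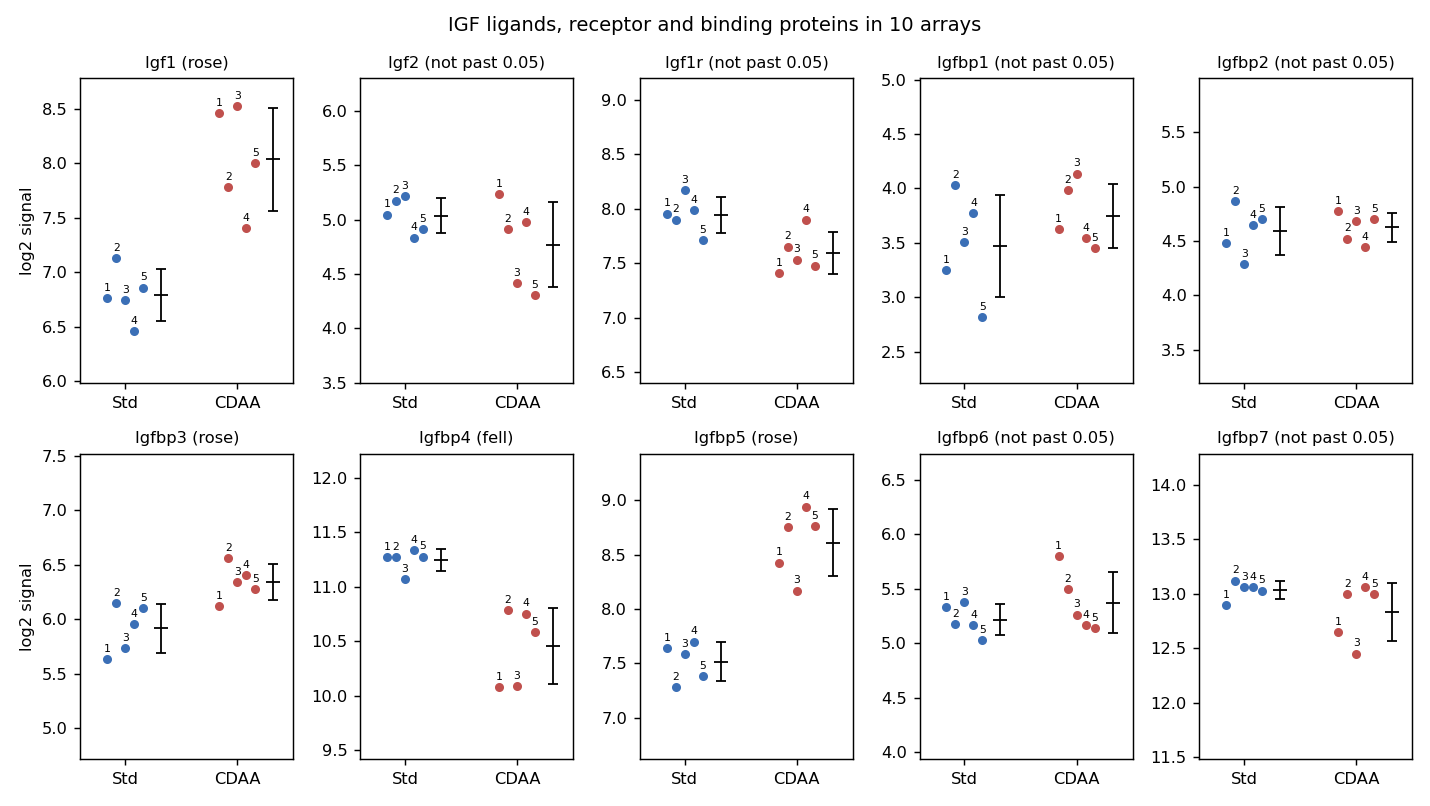
Log2 signal (vertical axis, each panel spanning the same 2.8 log2 units) of the 10 IGF genes in the 5 Std (blue) and 5 CDAA (red) arrays. Numbers are the array numbers, and the black bar is the mean with its SD. The diets do not overlap for Igf1, Igfbp4 and Igfbp5.

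The genes that changed came from the ligands and the binding proteins. By limma 3 of 10 members rose and 1 fell, where 7.49% of all genes rose and 9.13% fell, or 16.6% in either direction. These shares include dim genes. When genes with a mean signal below the median of all genes were left out, 1841 of 12352 rose and 2500 fell. Both are larger shares than among all genes. That fit left out Igfbp1 and called 3 members risen and 2 fallen. The 16.6% set beside the pathway lists below carries the same limit. The 5 values of one diet lay wholly outside those of the other for 3 members (2 higher and 1 lower with CDAA), against 13.9% of all genes (6.16% higher and 7.73% lower). The median change of the 10 members was 0.09, and that of all genes was -0.02. The median size of the change, whatever its direction, was 0.31 for the members and 0.16 for all genes.

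Of the ligands, Igf1 rose 2.37-fold. Its log2 signal was 8.46, 7.78, 8.53, 7.40 and 8.01 in CDAA 1 to CDAA 5 and 6.76, 7.13, 6.74, 6.46 and 6.86 in Std 1 to Std 5. Every CDAA array lay above every Std array, and CDAA 3 and CDAA 1 were the highest. Igf1 (probe set 16000_at) changed by 1.25 ± 0.21 (SE, limma adjusted p = 0.00177), from 6.79 ± 0.24 to 8.04 ± 0.47 (SD, n = 5). It passed in 20 of 22 other fits, among them without CDAA 1 and CDAA 3 (0.94) and with the hepatocyte marker mean as a covariate (0.86), but not with the pan-endothelial (0.51) or the stellate (0.16) mean. All of these covariates moved with diet. Within CDAA the order of the arrays by Igf1 (CDAA 3, 1, 5, 2, 4 from high to low) was the order by the means of the recruited macrophage and of the stellate cell and fibroblast markers, whose part in the rise was not tested. The order by hepatocyte markers was CDAA 3, 1, 2, 5, 4. Within Std, Igf1 was highest in Std 2, where hepatocyte and Kupffer cell means were also highest, and lowest in Std 4, where Kupffer cell and recruited macrophage means were also lowest. The match of orders seen in CDAA was not seen in Std. There the order was Std 2, 5, 1, 3, 4 by Igf1. It was Std 3, 1, 5, 2, 4 by the recruited macrophage mean and Std 5, 2, 1, 4, 3 by the stellate mean. Igf1os, listed on the opposite strand of the locus and chosen after its values were seen, was at 2.65 ± 0.32 with Std and 2.88 ± 0.22 with CDAA (SD, n = 5) and did not pass.

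Igf2, the growth factor of fetal tissues, which is imprinted and largely switched off in adult mouse liver, did not pass. Its log2 signal was 5.23, 4.92, 4.41, 4.98 and 4.31 in CDAA 1 to CDAA 5 and between 4.83 and 5.21 in Std. CDAA 3 and CDAA 5 lay below every Std array, while the other CDAA arrays lay among or just above them. The change was -0.27, with a 95% interval of -0.64 to 0.11 (limma adjusted p = 0.354), and -0.15 without CDAA 5, -0.18 without CDAA 3. H19, the noncoding RNA that shares the imprinted domain with Igf2, rose by 0.55 ± 0.16 (SE, limma adjusted p = 0.0397) to 3.74 ± 0.29, from 3.19 ± 0.29 with Std (SD, n = 5), below the array median. H19 did not pass when any single array other than CDAA 4, Std 2 or Std 3 was left out, at changes of 0.43 to 0.59, nor without CDAA 1 and CDAA 3 (0.45).

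The receptor Igf1r stayed short of the threshold. Its log2 signal was 7.41, 7.65, 7.53, 7.90 and 7.48 in CDAA 1 to CDAA 5 and 7.96, 7.90, 8.17, 7.99 and 7.71 in Std 1 to Std 5. Only CDAA 4 reached into the bulk of the Std arrays, and Std 5 was the lowest of its group. The means were 7.59 ± 0.19 and 7.94 ± 0.17 (SD, n = 5), a change of -0.35 with a 95% interval of -0.61 to -0.09 (limma adjusted p = 0.0630). Without CDAA 4 the change was -0.43 and passed, as it did without Std 5 (-0.41) and, at the same change, with genes below the median left out. Without CDAA 1 and CDAA 3 it was -0.27 and did not pass.

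Among the binding proteins, Igfbp5 rose most and Igfbp4 fell. Igfbp5, a matrix-bound protein of mesenchymal and vascular cells, was at 8.43, 8.75, 8.17, 8.94 and 8.76 in CDAA 1 to CDAA 5 and at 7.64, 7.28, 7.58, 7.70 and 7.38 in Std 1 to Std 5. The groups did not overlap, and the gap between the lowest CDAA array, CDAA 3, and the highest Std array, Std 4, was wider than the whole range of Std. Igfbp5 (16011_at) rose 2.13-fold, a change of 1.09 ± 0.15 (SE, limma adjusted p = 0.000548) between means of 7.52 ± 0.18 and 8.61 ± 0.31 (SD, n = 5). It passed in 22 of 22 other fits, with changes of 1.01 to 1.78, and its change was 1.30 without CDAA 1 and CDAA 3. With the pan-endothelial, hepatocyte and stellate marker means as covariates the estimates were 1.61, 1.37 and 1.78. The pan-endothelial and stellate means did not overlap between diets, so these fits cannot tell their part from that of the diet. Recruited macrophage and bile duct means were not used as covariates.

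The order of the CDAA arrays by Igfbp5 was CDAA 4, 5, 2, 1, 3, near the reverse of that by Igf1. It was also the order of Mcam in the CDAA arrays. The pan-endothelial, LSEC and capillary marker means shared the order CDAA 4, 2, 5, 1, 3, the exact reverse of that by Igf1. Igfbp7 gave the same order but for a tie between CDAA 2 and CDAA 5. The mean of the 13 stellate cell and fibroblast markers, of which 7 rose, was lowest among CDAA arrays in CDAA 4, where Igfbp5 was highest. At 6.63 there, it was still above every Std array (5.76 to 6.29). Within Std the order by Igfbp5 was Std 4, 1, 3, 5, 2, and that by Mcam was Std 3, 1, 2, 4, 5. The pan-endothelial and LSEC means were also highest in Std 4 and the capillary mean in Std 3, and none matched the Igfbp5 order. Which cells carried the rise of Igfbp5 was not tested.

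**Figure D2:**
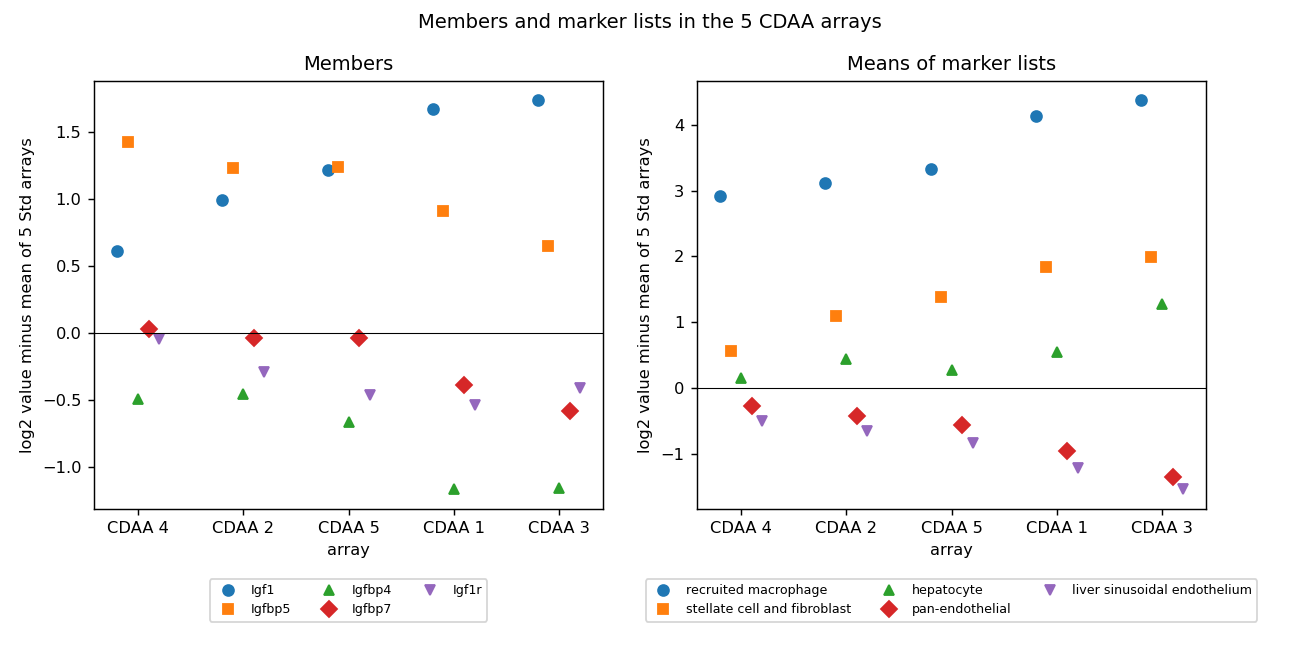
Log2 signal in each CDAA array minus the mean of the 5 Std arrays (vertical axes), for 5 IGF genes (left) and the means of 5 marker lists (right), with arrays placed by their pan-endothelial mean from high (CDAA 4) to low (CDAA 3). Igf1 and the recruited macrophage and stellate means are highest in CDAA 3 and lowest in CDAA 4, and Igfbp5 is highest in CDAA 4 and lowest in CDAA 3.

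Igfbp4, an inhibitor of IGF action that the protease PAPPA cuts, fell 1.73-fold. It was at 10.08, 10.79, 10.08, 10.75 and 10.58 in CDAA 1 to CDAA 5 and at 11.27, 11.27, 11.07, 11.34 and 11.28 in Std 1 to Std 5. All CDAA arrays lay below all Std arrays, with CDAA 1 and CDAA 3 well below the other CDAA arrays. Igfbp4 (16010_at) had a change of -0.79 ± 0.15 (SE, limma adjusted p = 0.00421), with means of 10.46 ± 0.35 for CDAA and 11.25 ± 0.10 for Std (SD, n = 5). Without CDAA 1 and CDAA 3 it fell by 0.54 and still passed. It did not pass with the pan-endothelial (-0.24), hepatocyte (-0.58) or stellate (-0.18) marker mean as a covariate. The pan-endothelial and stellate means did not overlap between diets, so in these fits their part and that of the diet cannot be told apart. The pan-endothelial mean was also lowest in CDAA 3 and CDAA 1, and its part in the fall of Igfbp4 was not tested.

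Igfbp3, the main carrier of IGF in blood, rose 1.34-fold, the smallest change of the members that passed. Its values were 6.12, 6.56, 6.34, 6.40 and 6.28 in CDAA 1 to CDAA 5 and 5.64, 6.15, 5.74, 5.96 and 6.10 in Std 1 to Std 5. The groups overlapped only in that CDAA 1 lay just below Std 2. Igfbp3 (16009_at) changed by 0.43 ± 0.12 (SE, limma adjusted p = 0.0346), from 5.92 ± 0.22 to 6.34 ± 0.16 (SD, n = 5). The call was lost without CDAA 2 (0.37), CDAA 3 (0.43), CDAA 4 (0.41), CDAA 5 (0.44), Std 1 (0.36), Std 3 (0.38) or Std 4 (0.44), and with each of the covariates, at changes of 0.43 to 0.54. Without CDAA 1 and CDAA 3 it passed, at 0.50.

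The remaining binding proteins did not pass, and their groups overlapped. Igfbp7, a matrix protein of vessel walls that binds IGF only weakly, was at 12.64, 13.00, 12.45, 13.06 and 13.00 in CDAA 1 to CDAA 5 and between 12.90 and 13.12 in Std. CDAA 1 and CDAA 3 were thus the only CDAA arrays below the Std range. Its change was -0.20, with a 95% interval of -0.48 to 0.07 (limma adjusted p = 0.328), and it was -0.02 without these arrays. Igfbp6, which prefers IGF2, ranged from 5.14 to 5.80 with CDAA and from 5.03 to 5.38 with Std, a change of 0.16 (95% interval -0.14 to 0.45). CDAA 1 was the highest, and without it the change of Igfbp6 was 0.05.

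Igfbp1 and Igfbp2, the hepatocyte binding proteins, were also unsettled by the diet comparison. Igfbp1, which insulin represses, ranged from 3.45 to 4.14 with CDAA and from 2.82 to 4.03 with Std, at or near signals where detection is not known. Its change was 0.27, with a 95% interval of -0.19 to 0.74, and was 0.11 without Std 5, 0.18 without CDAA 3 and 0.41 without Std 2. Igfbp2 ranged from 4.45 to 4.78 with CDAA and from 4.29 to 4.87 with Std. Its interval, -0.23 to 0.29, was among the narrowest of the members and holds 0 near its middle (change 0.03).

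**Figure D3:**
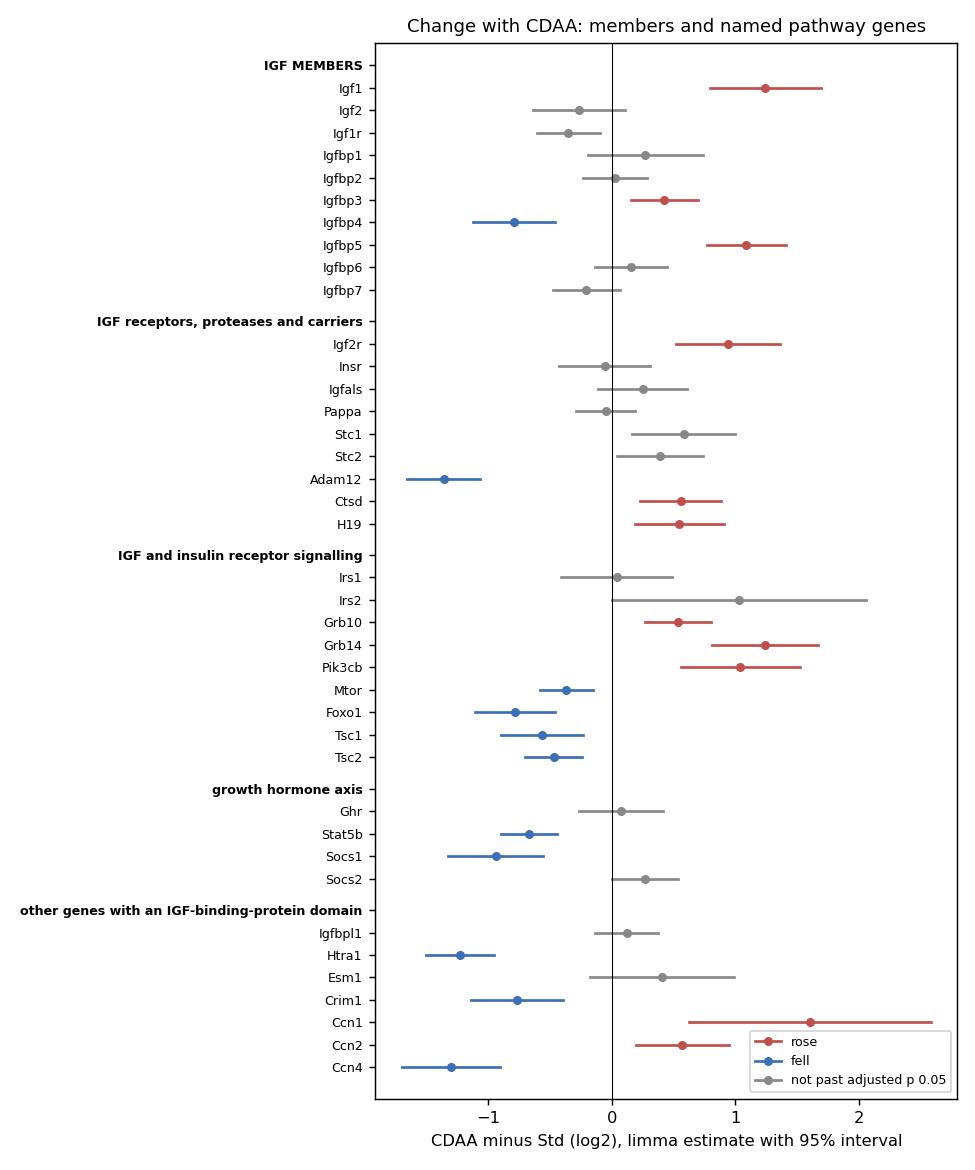
Change with CDAA (horizontal axis, CDAA minus Std in log2 signal) of the 10 IGF genes and 29 named genes of the pathway lists, as limma estimates with 95% intervals. Red marks genes that rose, blue genes that fell and grey genes that did not pass. Ccn1 (1.61), Igf1 (1.25), Grb14 (1.24) and Igfbp5 (1.09) lie to the right, and Adam12 (-1.36) and Ccn4 (-1.30) to the left.

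For each member that changed, the genes with the most similar pattern were found by the root mean square distance between log2 profiles over the 10 arrays, after each gene's own mean was taken away. For Igf1 these were Sh3pxd2b, an adaptor of podosomes (distance 0.15), the transcription factor Cebpa (0.15) and Ly86, a partner of a Toll-like receptor relative in myeloid and B cells (0.16), which rose by 1.11, 1.06 and 1.16. Igfbp5 lay nearest to Dbn1, an actin-binding protein (0.18), Flrt2 (0.21) and the protease inhibitor Serpinb6b (0.22), which rose by 0.98, 1.19 and 1.07. Profiles closest to Igfbp4 were those of Fut11, a fucosyltransferase (0.06), Ushbp1 (0.07) and Sh3bp5 (0.07), which fell by 0.77, 0.78 and 0.73. Igfbp3 had Ccdc90b (0.10), Clec2i (0.11) and Hmgn3 (0.11) as its nearest genes. The SD of the members over the 10 arrays was 0.75 for Igf1, 0.62 for Igfbp5, 0.48 for Igfbp4 and 0.29 for Igfbp3. A small distance therefore means less for Igfbp3, whose profile varied least, and since diet separates the arrays these distances mostly follow the diet difference.

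Several binding protein genes are neighbours. In the RefSeq table Igfbp1 lies next to Igfbp3, and Igfbp2 next to Igfbp5, with no other protein-coding gene between them. One member of each pair rose and the other did not pass: Igfbp3 changed by 0.43 and Igfbp1 by 0.27, and Igfbp5 by 1.09 and Igfbp2 by 0.03. The difference within a pair was not tested. Tensin genes, which link integrins to actin, lie within 2 protein-coding genes of Igfbp3 (Tns3), Igfbp4 (Tns4), Igfbp5 (Tns1) and Igfbp6 (Tns2), and were looked up after the data had been seen. Tns3 rose by 0.73 ± 0.21 (SE, limma adjusted p = 0.0306) and Tns2 fell by 0.89 ± 0.16 (limma adjusted p = 0.00328), while Tns1 (0.09) and Tns4 (-0.06) did not pass.

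In the wider pathway, 4 lists with 58 measured genes were read beside the members, of which 8 rose, 10 fell and 40 did not pass. Of 14 genes for other receptors, carriers, proteases and RNA regulators of the IGFs, 3 rose and 1 fell (28.6%, against 16.6% of all genes). Igf2r, the scavenging receptor that clears IGF2 and carries lysosomal enzymes, rose by 0.94 ± 0.19 (SE, limma adjusted p = 0.00616), and every CDAA array lay above every Std array. Its signal was 7.66 and 7.74 in CDAA 1 and CDAA 3 but 6.86 to 6.87 in the other CDAA arrays, and without these 2 the change was 0.61 and passed. It did not pass with the pan-endothelial (0.25), hepatocyte (0.60) or stellate (0.23) marker mean as a covariate. Ctsd, a lysosomal protease carried by that receptor, rose by 0.56 ± 0.15. The call for Ctsd was lost without CDAA 1 (0.46), CDAA 3 (0.47), both (0.31), Std 1 (0.52), Std 4 (0.54) or Std 5 (0.54). With H19 also lost, 1 gene of the list rose without CDAA 3, Std 1, Std 4 or Std 5, and 2 fell without CDAA 3. Adam12, a metalloprotease able to cut IGFBP3 and IGFBP5, fell by 1.36 ± 0.14 (limma adjusted p = 8.61e-05). It was at 4.93 ± 0.29 with CDAA and 6.30 ± 0.13 with Std (SD, n = 5), with no overlap.

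The other regulators of binding protein cleavage did not pass. Pappa (change -0.05) was at 3.68 ± 0.21 with Std (SD, n = 5), below the array median. Its inhibitors Stc1 and Stc2, the stanniocalcins, changed by 0.58 and 0.39 from 3.76 and 3.85. Stc1 passed without CDAA 1 (0.76), without CDAA 1 and CDAA 3 (0.74) and in 4 further fits. Igfals, the liver-made subunit of the large IGF complex of blood, was at 3.30 ± 0.27 with Std and 3.55 ± 0.30 with CDAA, and the insulin receptor Insr at 8.27 ± 0.35 and 8.21 ± 0.23 (SD, n = 5).

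Below the receptor, 3 of 22 genes of IGF and insulin signalling rose and 4 fell (31.8%, against 16.6%), with a median change of 0.04. All that rose are adaptors or lipid kinases. Grb14 and Grb10, adaptors that bind the insulin and IGF1 receptors and dampen their signal, had changes of 1.24 ± 0.20 (SE, limma adjusted p = 0.00138) and 0.54 ± 0.12 (limma adjusted p = 0.0104). The change of the PI3 kinase subunit Pik3cb was 1.04 ± 0.22 (limma adjusted p = 0.00721). For each of the 3 the diets did not overlap. Without CDAA 1 and CDAA 3 the change of Pik3cb was 0.68 and passed, and it did not pass with the pan-endothelial (0.30), hepatocyte (0.64) or stellate (0.46) mean as a covariate. Foxo1, the transcription factor that insulin and IGF signals keep out of the nucleus, fell by 0.78 ± 0.15 (limma adjusted p = 0.00383). Tsc2 and Tsc1, partners in the complex that restrains mTOR, fell by 0.47 ± 0.11 and 0.56 ± 0.15, and Mtor itself by 0.37 ± 0.10. Grb14 (0.62), Foxo1 (-0.25) and Tsc2 (-0.56) did not pass once the pan-endothelial mean was a covariate, while Grb10 did (0.88).

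Part of these calls rested on single arrays. Tsc1 did not pass without Std 1 (-0.55) or Std 4 (-0.47), nor without CDAA 1 and CDAA 3 (-0.39). Mtor did not pass without CDAA 5 (-0.31), Std 1 (-0.37), Std 3 (-0.35), Std 4 (-0.35) or Std 5 (-0.35), nor without CDAA 1 and CDAA 3 (-0.36). The list thus held 2 falls without Std 1, without Std 4 and without both CDAA 1 and CDAA 3. The receptor substrates did not pass: Irs1 changed by 0.04, and Irs2 by 1.03 with a wide 95% interval of 0.001 to 2.06. The Irs2 signal was 6.51 in CDAA 1 and 5.59 in CDAA 3 but 3.83 to 4.17 in the other CDAA arrays, and its change was 0.61 without CDAA 1 and 0.22 without both. Irs2 passed with the replicate number as a block and in no other of the 22 fits.

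Growth hormone, the pituitary hormone that drives Igf1 in hepatocytes, acts through GHR, JAK2 and STAT5. Of 9 genes of this axis 0 rose and 2 fell by limma (22.2%, against 16.6%), and at an unadjusted p under 0.05 the signals of 2 were higher and of 2 lower. Stat5b fell by 0.67 ± 0.10 (SE, limma adjusted p = 0.00114) and Socs1, a cytokine-induced feedback inhibitor, by 0.94 ± 0.18. Neither overlapped between diets. Stat5b did not pass once the pan-endothelial mean was a covariate (-0.39), and neither passed with the stellate mean (-0.32 and -1.44). Ghr changed by 0.08, with a 95% interval of -0.26 to 0.42, and Socs2, the feedback inhibitor most tied to growth hormone, by 0.27 (limma adjusted p = 0.166).

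Other secreted or membrane proteins carry the same N-terminal domain as the IGFBPs. Of 13 such genes 2 rose and 3 fell (38.5%, against 16.6%). Those that fell were Ccn4, a matricellular Wnt target, by 1.30 ± 0.18 (SE, limma adjusted p = 0.000663), the secreted serine protease Htra1 by 1.23 ± 0.13 and the membrane protein Crim1 by 0.77 ± 0.17, with no overlap between diets for any of them. Once the pan-endothelial mean was a covariate Ccn4 (-0.63) and Crim1 (-0.13) did not pass, and with the stellate mean neither they (-0.66 and 0.12) nor Htra1 (-0.69) did. Ccn1 and Ccn2, immediate early matricellular genes, rose by 1.61 ± 0.45 and 0.57 ± 0.17, and both overlapped. Ccn1 did not pass without CDAA 1 (1.31), CDAA 3 (1.54), both (1.12), Std 2 (1.32) or Std 5 (1.47). Ccn2 did not pass without CDAA 1 and CDAA 3 (0.56) or when any array but Std 2 was left out, at changes of 0.47 to 0.60. The list held 0 rises without CDAA 1, CDAA 3 or Std 5, and 1 without any other array. Esm1, a proteoglycan of activated endothelium, changed by 0.41 and did not pass, but passed without CDAA 1 and CDAA 3 (0.83), and Igfbpl1 stayed at 2.76 ± 0.23 and 2.88 ± 0.11 in Std and CDAA (SD, n = 5).

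**Figure D4:**
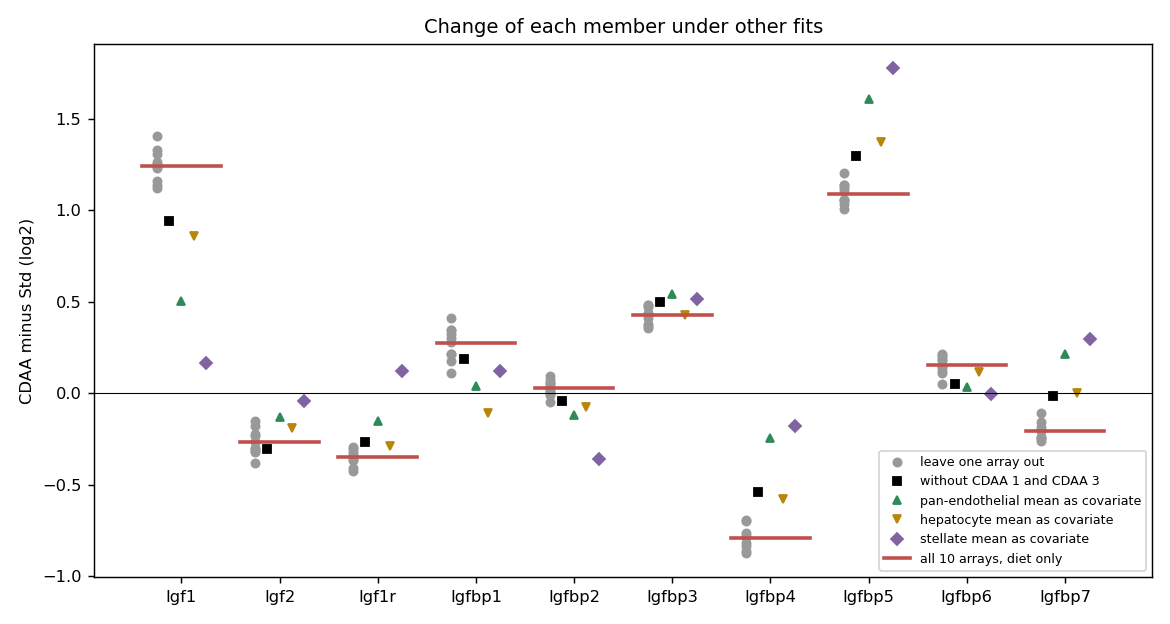
Change of each IGF gene (vertical axis, CDAA minus Std in log2 signal) over all 10 arrays with diet only (red line), with each array left out (grey), without CDAA 1 and CDAA 3 (black) and with a marker mean as covariate (green, ochre and purple). Igfbp5 stays between 1.01 and 1.78, while Igf1 runs from 0.16 to 1.40 and Igfbp4 from -0.87 to -0.18.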

How the data were processed

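The deposited values are log2 signals that the authors computed by RMA (robust multi-array average), a tool named in the submitters' processing notes. Its version is not given in the sources used here. It subtracts background, brings the arrays to one distribution and summarises probes into probe sets, so small signals are compressed. Of 25428 probe sets, 24705 had 1 gene symbol in the platform annotation, 0 had several and 723 had none. The probe set with the highest mean was kept per gene, giving 24704 genes. CDAA (5 arrays) was compared with Std (5 arrays) with limma 3.58.1 (lmFit, then eBayes; R 4.3.3). Tests were two-sided, and p-values were adjusted by Benjamini and Hochberg's method over the 24704 genes, with calls at 0.05. The procedure was tested on simulated data. No pair of arrays shared more than 0.244% identical values. Replicates are pools of mice. Their spread, on which each p-value rests, is that between pools, and the number of arrays limits the precision.

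The members and lists were chosen with earlier results of these data known. Text names all members, up to 4 rises and 4 falls per pathway list, 13 fixed pathway genes, the 3 nearest profiles per member that passed, the first 2 genes of each marker list, and Mcam. Cd9 is in both the macrophage and the capillary list. 3 of 61 pathway entries and 3 of 109 marker entries had no named probe set here. Other fits blocked on the replicate number, or used another normalization or centring, filters on dim genes, an intensity trend, array weights, all probe sets, marker means as covariates, and left out arrays. Promoter windows are RefSeq's. Same-numbered arrays of the diets were checked for pairing: correlations of their deviations from the group means over genes were 0.02 to 0.25. All were positive, and not every pair exceeded 0.1, which does not settle whether the arrays are paired. The labels name the diets and no pairing, so the main fit did not pair the arrays.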

Additional observations from a re-analysis of the deposited data

Results flagged for a closer look

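Within the groups of 5 arrays, an array was compared with its nearest neighbour by the gap between them over the whole range (Dixon's critical value is 0.71 for 5 arrays). Of 78 groups of values tested, 2 held an array beyond it, where chance alone gives about 1 in 20. Igfbp4 was at 11.07 in Std 3 against 11.27 in the next lowest Std array, a gap of 0.739 of the range. Std 3 is also the array with the highest neutrophil marker mean (9.91), and without it Igfbp4 fell by 0.83 and passed. Mtor was at 7.17 in Std 2 against 7.34 in the next lowest Std array, a gap of 0.772 of the range.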

How the results depend on the processing

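Of 219 changes of the 10 members over 22 other fits, 188 kept their direction and their side of the threshold, 15 lost the call, 3 gained one and 13 changed sign without passing, and for 29 named pathway genes these counts were 517, 81, 8 and 27 of 633. Causes were not tested. A dim gene left out by a filter has no value there. The replicate block gave 1893 genes risen and 2285 fallen, against 1851 and 2255 without it, and 3 members risen and 1 fallen as before. Stc1 (0.58) and Irs2 (1.03) passed with the block. Of 10 arrays 6 correlated best with the array of their own number among the 5 of the other diet, where chance alone gives about 2, a hint from the data and not from the design. The marker covariates moved with the diet: with the pan-endothelial, hepatocyte and stellate mean 221, 639 and 25 genes rose and 102, 448 and 7 fell.

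The pan-endothelial mean did not overlap between diets. With it as covariate, 1 member rose and 0 fell, and 0 receptor, protease and carrier genes rose. Of the other lists, 1 signalling gene rose and 0 fell, 1 growth hormone axis gene fell, and 0 domain genes rose and 1 fell. Signs changed there, none passing, for Igfbp2 (-0.12), Igfbp7 (0.21), Insr (0.26), Igfals (-0.078), Pappa (0.036), Irs1 (-0.59) and Irs2 (-0.39). With the hepatocyte mean 0 members fell, 0 receptor, protease and carrier genes rose and 2 fell, 1 signalling gene fell and 0 domain genes rose, and signs changed for Igfbp1 (-0.11), Igfbp2 (-0.075), Igfbp7 (0.0035), Insr (0.12), Igfals (-0.024), Pappa (0.022) and Irs1 (-0.11). With the stellate mean, which also did not overlap between diets, 1 member rose and 0 fell. Of the 4 pathway lists 0 genes passed in either direction. Signs changed there for Igf1r (0.12), Igfbp2 (-0.36), Igfbp6 (-0.0050), Igfbp7 (0.30), Insr (0.65), Igfals (-0.035), Ctsd (-0.058), Irs1 (-0.62), Irs2 (-0.54), Socs2 (-0.015) and Crim1 (0.12).

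Without CDAA 1 and CDAA 3, 2 receptor, protease and carrier genes and 2 signalling genes fell and 1 domain gene rose, and Igfbp2 (-0.040), Insr (0.096) and Irs1 (-0.19) changed sign. With array weights 2 receptor, protease and carrier genes fell and 0 domain genes rose, and Igfbp2 (-0.023), Insr (0.013) and Irs1 (-0.0051) changed sign. With an intensity trend 1 domain gene rose, and 2 members fell in the fit on genes above the median. Leaving out each array in turn gave 2 to 3 members risen and 1 to 2 fallen, 1 to 3 receptor, protease and carrier genes risen and 1 to 2 fallen, 2 to 4 signalling genes fallen and 0 to 1 domain genes risen. Ranges that crossed 0 were -0.048 to 0.097 for Igfbp2, -0.15 to 0.076 for Insr, -0.10 to 0.031 for Pappa and -0.12 to 0.19 for Irs1.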
